A study of Mus musculus with 3 samples.

Results

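The expression profile of untransfected C3H10T1/2 cells was read from a single array, 1 of 3 in the series. It was chosen by its label alone, and levels were taken over all 34945 probe sets that carried a single gene symbol, which stood for 18193 genes. C3H10T1/2 is an established mesenchymal cell line from mouse embryos, used by the study as a stand-in for mesenchymal stem cells. The cells carried no vector, and their medium was α-MEM with fetal bovine serum and antibiotics. The other arrays held the same line after retroviral overexpression of the fluorescent protein Venus or of Venus fused to Mkx, a homeobox factor of tendon and of the outer annulus fibrosus. Nothing in the sources used here gives confluence, passage or the number of cultures. The array has no replicate, so no p-value and no spread between cultures can be given.

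The label could not be checked through a transgene, because no probe set for Venus was used. Mkx was read by 1 probe set, at a log2 level of 6.88 on the untransfected array. The same probe set read 7.43 on the Venus array and 2.71 on the array labelled Venus-Mkx, the lowest where Mkx was introduced. Whether this probe set reads the introduced Mkx is not known here, and the cells are called untransfected as labelled. The values of the 3 arrays had been normalized together. No further reading of the other arrays is given.

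Mesenchymal cells make the collagens and proteoglycans of connective tissue, and progenitors among them can turn into tendon, ligament, cartilage, bone or fat. Each fate is known for a small set of transcription factors and for the matrix or storage proteins that they switch on, such as Scx and Tnmd in tendon, Sox9 and Col2a1 in cartilage, Sp7 in bone and Pparg in fat. TGFβ and BMP ligands steer the choice between fibrous and cartilaginous tissue through receptor kinases and Smad proteins.

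The 86 probe sets for olfactory, vomeronasal and taste receptors, genes of sensory neurons and taste cells, served as the background. They read between 1.76 and 5.35 on the log2 scale, with a median of 2.38. Their 95th percentile was 3.92 and their 99th percentile 5.01. A gene was called above background when its highest probe set passed 3.92. It was called clearly above background when it also passed 5.01, a stricter line that rests on the few brightest receptor probe sets.

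Of 18193 genes, 11451 (62.9%) were above background and 9851 (54.1%) clearly above it. The median gene level was 5.66, and 25% of genes lay at or below 3.14. Levels from 10 to 12 were held by 1370 genes, and 196 genes read 12 or more. The share depended on how many probe sets a gene had, since only the highest was used: 47.4% of the 9183 genes with 1 probe set were above background, against 72.4% of those with 2 and 85.8% of those with 3 or more.

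**Figure D1:**
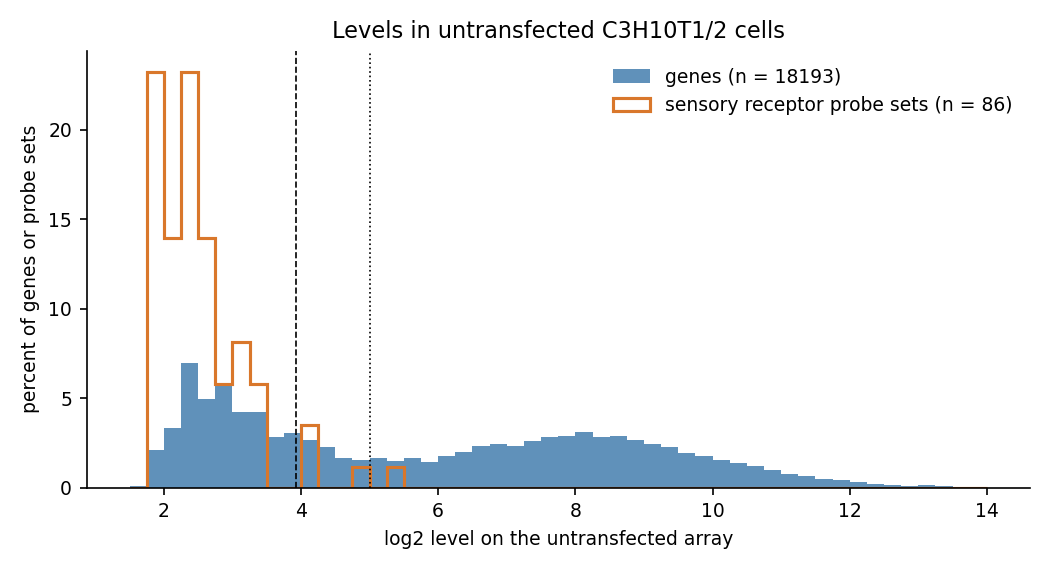
Percent of genes (filled) and of sensory receptor probe sets (outline) in bins of log2 level on the untransfected array. The dashed line is the background at 3.92 and the dotted line the stricter one at 5.01; receptor probe sets peak near 2, and gene levels form a low group below the dashed line and a broad group around 8.

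Some limits of the scale bear on every level. Low readings often coincided: 49 values were each held by 100 or more probe sets, and 1199 probe sets read 2.40. Of the probe sets between 1 and 4, 68.6% sat on such a value, against 27.8% between 4 and 6 and none above 6. Such readings carry no order among themselves. Probe sets of the same gene also disagreed, with a pooled SD of 2.01 log2 units over 9010 genes with 2 or more. Of 7101 such genes above background, 3263 (46.0%) had at least 1 probe set at or below it. The brightness of a probe set depends on its sequence, so a higher reading of one gene than of another is an order of signal and not of transcript number.

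The brightest readings came from the translation machinery, the cytoskeleton and the matrix. Ribosomal proteins took 15 of the 25 highest places and 34 of the highest 100. Rpl41, a small protein of the large ribosomal subunit, was highest of all at 13.95. The suffix of its probe set marks that it may also match related transcripts. Other ribosomal proteins followed closely, with Rpl37a at 13.61, Rps29 at 13.60 and Rps2 at 13.59, and the translation elongation factor Eef1a1 read 13.59.

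The 10 highest genes outside the ribosome were led by Lgals1, a galactoside-binding lectin of mesenchymal cells, at 13.81. Tpt1, the translationally controlled tumour protein, read 13.79 with one probe set and 2.33 with the other. The actins Actb and Actg1, which build the cell's microfilaments, read 13.68 and 13.55. Col1a2, a chain gene of type I collagen, read 13.71, and Bgn, the small matrix proteoglycan biglycan, 13.36. The set was completed by the actin-binding Tmsb10 at 13.47, the intermediate filament Vim at 13.45 and the ferritin heavy chain Fth1, which stores iron, at 13.36. A fibroblast's structural proteins thus stood beside the ribosome at the top of the signal range.

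Markers of mesenchymal stromal cells were nearly all present. Of 23 measured genes of that list, 21 (91.3%) were above background and 20 (87.0%) clearly above it, against 62.9% and 54.1% of all genes. Their median was 9.96 against 5.66 for all genes. Besides Vim, the calcium-binding S100a4 read 13.33, the chemokine Cxcl12 12.58 and the limb mesenchyme factor Prrx1 11.75. The receptors Pdgfrb and Pdgfra, through which PDGF drives mesenchymal growth, read 11.06 and 10.15. The adhesion molecules Cdh11, Cdh2 and Cd44 read 11.05, 10.81 and 10.56.

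The surface proteins by which mesenchymal stem cells are often sorted were less uniform. Alcam (CD166) read 8.37, Eng (CD105) 7.28 and Thy1 (CD90) 7.27. Nt5e (CD73) read 4.02, between the background lines, at a value shared by 354 probe sets. The leptin receptor Lepr, a mark of bone marrow stroma, read 3.29, and Fap, a protease of activated fibroblasts, 2.58. Both were at background, so the list held 2 members without a readable signal.

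Matrix genes gave the highest median of the cell type lists, 11.7. Above background were 18 of 19 (94.7%) and clearly above it 17 (89.5%), against 62.9% and 54.1% of all genes. Sparc, which binds collagen, read 13.20, the collagen crosslinking enzyme Lox 13.09 and fibronectin, Fn1, 13.08. Fibrillar Col3a1 and Col5a2 read 13.10 and 12.95. Col1a1, the partner chain of Col1a2, read 11.52 with one probe set and 11.29 with the other, while the 3 probe sets of Col1a2 ran from 7.43 to 13.71. The collagen chaperone Serpinh1 read 11.72, and the beaded filament collagens Col6a1, Col6a2 and Col6a3 read 11.19, 11.79 and 11.44.

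The exceptions in the matrix list were small leucine-rich proteoglycans. Dcn, decorin, a main proteoglycan of tendon and dermis, read 4.06 and 2.88 with its probe sets. Lum, lumican, read 2.95. Lum was thus at background and Dcn between the lines, while biglycan, fibromodulin and asporin of the same protein family were clearly above background. Across the collagen family as a whole, 27 of 42 genes (64.3%) were above background, near the share of all genes, and 22 clearly so. Col4a1, a chain of basement membranes, read 11.03 and Col8a1 10.66, while Col4a3, Col13a1 and Col24a1 read 2.40, 2.48 and 1.94.

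**Figure D2:**
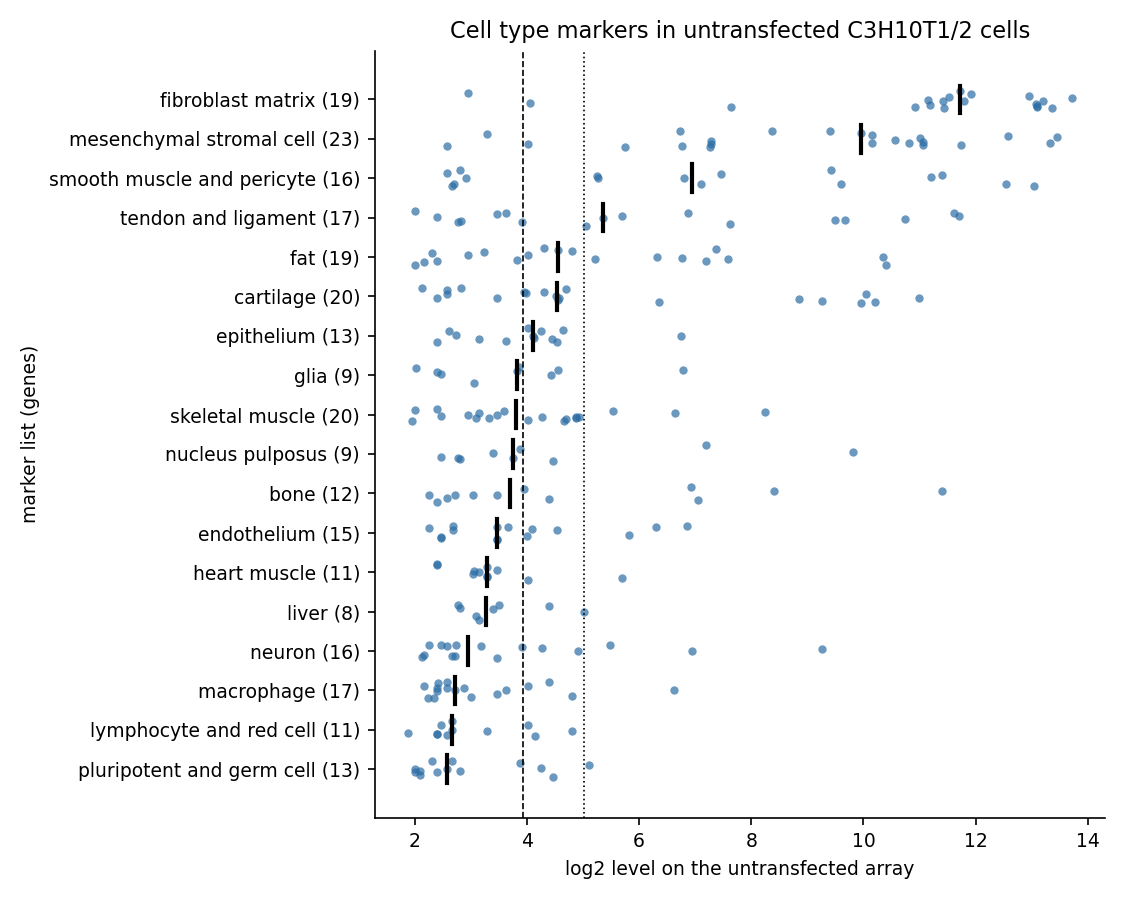
Log2 level of each measured gene (points) in 18 cell type marker lists on the untransfected array, with the list median (black bar) and the background lines at 3.92 (dashed) and 5.01 (dotted). Matrix and mesenchymal stromal markers have the highest medians, 11.7 and 9.96, and pluripotent and germ cell markers the lowest, 2.58.

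Of 17 measured tendon and ligament genes, 10 (58.8%) were above background, all of them clearly, and 7 were not, with a median of 5.35. These shares and the median are near those of all genes, 62.9% above background, 54.1% clearly above it and 5.66. Fmod, fibromodulin, which shapes collagen fibrils, was read by 6 probe sets between 9.16 and 11.71. All but the lowest carry a suffix marking that they may cross-match. Aspn, asporin, read 11.62, and Tnmd, tenomodulin, a membrane protein of mature tendon, read 10.74 with its only probe set. The matrix protein Tnc read 9.50 and the mechanically induced factor Egr1 9.66.

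The tendon transcription factors ranged from moderate readings to background. Mkx read 6.88 and Six2 7.62, each with 1 probe set. Scx, the early tendon factor, read 5.05 with one probe set and 3.42 with the other, so it only just passed the stricter line. Egr2 read 5.35, and the cofactors Eya1 and Eya2 were at background with 2.77 and 2.40. Comp, a cartilage and tendon glycoprotein, read 5.69. Thbs4, Tnxb, Col14a1 and Kera, all of tendon matrix, lay at background with 3.46, 3.63, 2.83 and 2.00, and the lubricin gene Prg4 just under the line with 3.91.

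Of 20 cartilage genes, 14 (70.0%) were above background and 7 (35.0%) clearly so, against 62.9% and 54.1% of all genes. Type II collagen, Col2a1, the main collagen of cartilage, read 10.99 with its only probe set, and Cnmd, chondromodulin, a relative of Tnmd, 10.21. Col11a1, which copolymerizes with type II collagen, read 10.05 and Cytl1 8.85. Sox9, the master factor of cartilage, read 9.96 and 9.71 with 2 probe sets and 3.37 with the third.

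Other cartilage genes ran from clear readings to background. Col9a1 read 9.26 and 5.48, and the other chains of type IX collagen, Col9a2 and Col9a3, read 2.58 and 4.56. Of the partners of Sox9, Sox6 read 6.35 and Sox5 4.31. Acan, aggrecan, the large proteoglycan of cartilage, read 4.51 and Hapln1, its link protein, 4.55, both between the background lines. Matn1, Chad, Epyc, Ihh and Col10a1 were at background with 2.40, 2.13, 2.58, 3.46 and 2.82. Matn3 and Snorc lay between the lines with 4.70 and 3.94.

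Of 12 bone genes, 6 were above background and 4 (33.3%) clearly so, against 62.9% and 54.1% of all genes. The other 6 were at background. Atf4, a stress-responsive factor that osteoblasts need but most cells express, read 11.40. Tnfrsf11b, the osteoclast inhibitor osteoprotegerin, read 8.40, the homeobox factor Dlx5 7.05 and the parathyroid hormone receptor Pth1r 6.93. Sp7, osterix, read 4.39, a value shared by 240 probe sets. The mineralization genes Alpl and Phex read 3.46 and 2.26, and the bone matrix genes Ibsp and Dmp1 2.40 and 2.58. Dlx5 and Pth1r could thus be read, while the matrix and mineralization genes named here lay at background.

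Of 19 measured fat genes, 12 (63.2%) were above background, near the 62.9% of all genes, and 8 (42.1%) clearly so. The early factors Cebpb and Cebpd read 10.40 and 10.35, and Zfp423, a preadipocyte factor, 7.19. Pparg and Cebpa, the factors that complete fat differentiation, read 7.59 and 6.31. Fabp4, a fatty acid carrier, read 7.38 with its highest probe set and Lpl, lipoprotein lipase, 6.77. The hormones Adipoq and Lep read 2.40 and 2.31, the lipid droplet gene Cidec 2.00 and the thermogenic Ucp1 2.95, all at background.

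**Figure D3:**
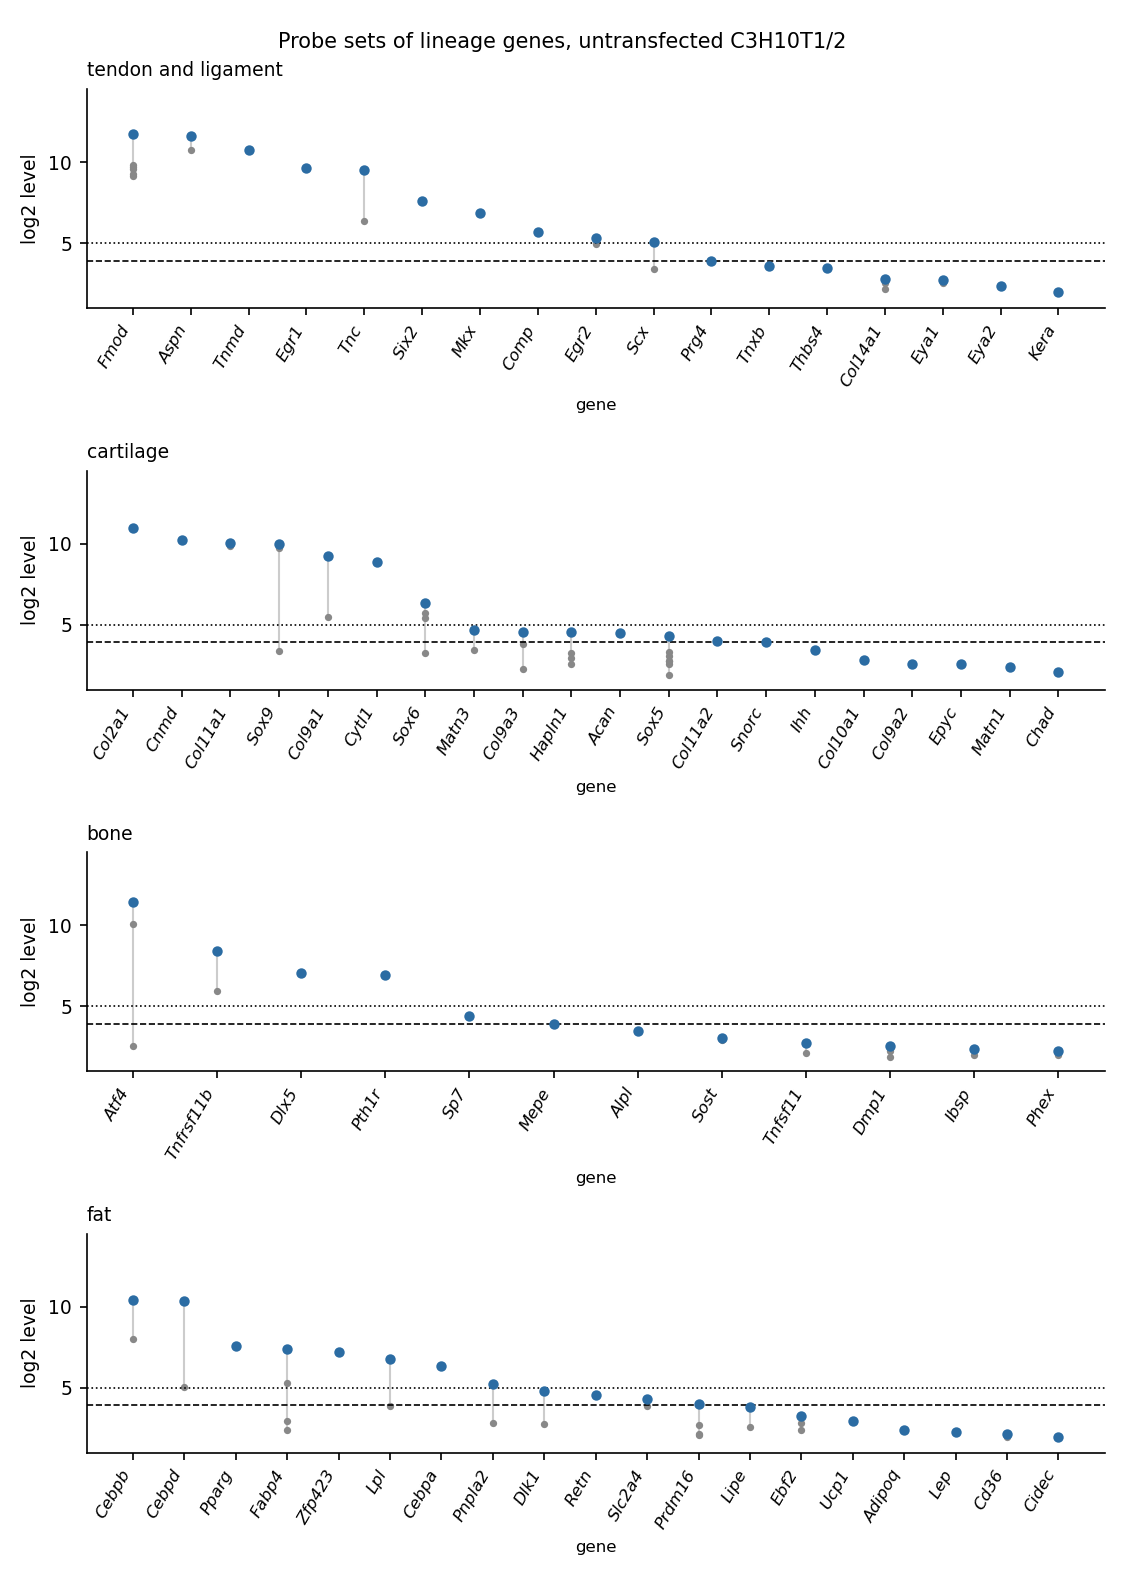
Log2 level of every probe set (points) of the tendon, cartilage, bone and fat genes on the untransfected array, with genes ordered by their highest probe set (blue) and lower probe sets in grey. The dashed and dotted lines mark 3.92 and 5.01; each lineage holds bright genes, led by Fmod at 11.71, Col2a1 at 10.99, Atf4 at 11.40 and Cebpb at 10.40, and genes at background.

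Markers of the nucleus pulposus, the gel core of the intervertebral disc, were few. Of 9 measured, 3 (33.3%) were above background and 2 (22.2%) clearly so, against 62.9% and 54.1% of all genes. These were Cd24a, a surface protein that many progenitors carry, at 9.81 and the mesodermal factor Foxf1 at 7.18. The sclerotome factor Pax1 read 4.47. The keratins Krt8, Krt18 and Krt19 read 3.88, 2.47 and 3.39, and the notochord signal Shh 2.81, all at background.

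Of 16 smooth muscle and pericyte genes, 11 (68.8%) were clearly above background and 5 were at background. The share above background was near the 62.9% of all genes, of which 54.1% were clearly above it. Acta2, smooth muscle actin, read 13.04 with a probe set whose suffix marks that it may also match related transcripts, and 5.44 and 3.46 with the others. The actin-binding Cald1 read 12.55, Tpm1 11.40, Tpm2 11.20 and Tagln 9.43, and the pericyte proteoglycan Cspg4 9.60. The myosin kinase Mylk read 7.11, the actin-associated Smtn, Cnn1 and Lmod1 of smooth muscle 6.79, 5.26 and 5.24, and the pericyte receptor Notch3 7.45. The 5 at background were Myh11 and Myocd, the myosin and the factor of differentiated smooth muscle, which read 2.58 and 2.66, and the pericyte genes Rgs5, Kcnj8 and Abcc9, at 2.81, 2.91 and 2.69.

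Over 10 lists of other cell types, without smooth muscle, 46 of 133 genes (34.6%) were above background and 15 (11.3%) clearly so, against 62.9% and 54.1% of all genes, with a median of 3.29. The leukocyte genes Ptprc and Adgre1 read 2.58 and 2.72, the endothelial genes Pecam1 and Cdh5 2.69 and 2.68, the epithelial cadherin Cdh1 3.63, the pluripotency factors Pou5f1, Nanog and Sox2 2.58, 2.66 and 2.09, and albumin, Alb, 2.77. Each of these was at background. Shares above background differed between the lists, from 18.2% of heart muscle genes to 61.5% of epithelial genes, the latter near that of all genes. Among the epithelial genes, 8 of 13 were above background but only 1 (7.69%) clearly so. Trp63, Krt5, Elf3 and Cldn3 read 4.65, 4.53, 4.45 and 4.25, all between the lines.

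Some single members of those lists were nevertheless readable. The microtubule protein Map2 read 9.25 and Stmn2 6.94, both known from neurons, while the synaptic Snap25 read 2.16. The VEGF receptor Flt1 read 6.85 and the endothelial factor Erg 6.30 with one probe set and 3.63 with the other. Egfl7, also of endothelium, was read by 4 probe sets from 4.02 to 5.82, while 9 of 15 endothelial genes were at background. Of 17 macrophage genes, 4 (23.5%) were above background, against 62.9% of all genes, and 13 were not. Cd14 read 6.62, and Csf1r, Lyz2 and Spi1 lay between the lines with 4.80, 4.39 and 4.02. The glial S100b read 6.79 and 6.49 with its probe sets, while 6 of 9 glial genes were at background. Mef2c, a factor of muscle and of other mesoderm, was read by 5 probe sets from 5.70 to 8.24. Myog and Myod1, which drive skeletal muscle, read 5.53 and 4.69, and Myf5 and Pax7 2.00 and 2.47. Epcam, an epithelial adhesion molecule, read 6.74 with a probe set that may cross-match and 3.06 with the other. The part that other cells in the culture could have in these readings was not tested.

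The cells gave strong readings for proliferation. All 30 measured genes of cell division were clearly above background, against 54.1% of all genes. Their levels ran from 5.90 to 12.6 with a median of 10.1. Pcna, the replication clamp, read 12.61, Top2a, which untangles chromosomes, 11.78, the helicase subunit Mcm7 11.53, and Mki67, a mark of cycling cells, 11.12. Cdk1, the kinase of mitosis, read 11.49 and Cdc20, also of mitosis, 11.29. The cyclins Ccnd1 and Ccnd2 of the first gap phase read 11.39 and 10.77, and the lowest member was the nucleotide enzyme Tyms at 5.90.

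Inhibitors of the cycle were read beside them. Of 13 inhibitors and tumour suppressors, 12 (92.3%) were above background and 11 (84.6%) clearly so, against 62.9% and 54.1% of all genes. Cdkn1a (p21) read 10.40 and Cdkn1b (p27) 8.82. The retinoblastoma gene Rb1 read 8.66 and Mdm2, which restrains p53, 8.68. Of the INK4 genes, Cdkn2c read 10.25, Cdkn2d 8.98 and Cdkn2b 6.82, while Cdkn2a, the locus of p16 and Arf, read 4.97, just under the stricter line. Cdkn1c (p57) was at background with 2.72.

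Immediate early genes, which answer serum within minutes, were also widely readable. Of 19, 18 (94.7%) were clearly above background, against 54.1% of all genes, with a median of 8.91. Klf4 read 11.10, Jund 10.87, Jun 9.49, Myc 8.47 and Fos 8.40. Lower readings came from Nr4a1 at 6.51, Junb at 6.20, Zfp36 at 5.72, Egr3 at 5.66 and Atf3 at 5.14. Fosb was at background with 2.77.

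All 19 TGFβ pathway genes were above background and 17 (89.5%) clearly so, against 62.9% and 54.1% of all genes. Their median was 8.59. Among ligands, Tgfb2 read 8.85 and Tgfb3 8.06, whereas Tgfb1 read 4.06 and 3.54 with its probe sets. The type II and type I receptors Tgfbr2 and Tgfbr1 read 10.18 and 8.69, and the coreceptor Tgfbr3 8.59. The signal carriers Smad4, Smad3 and Smad2 read 10.87, 8.83 and 8.45, and the inhibitory Smad7 7.76. The latent TGFβ binding proteins Ltbp2 and Ltbp3, which hold the ligand in the matrix, read 10.42 and 10.39. The pathway was thus readable at every step, with Tgfb1 and the activin receptor Acvr2b at 4.72 as the low members.

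The BMP pathway was divided among its ligands. Of 22 genes, 16 (72.7%) were above background and 14 (63.6%) clearly so, with a median of 8.57. All genes gave 62.9%, 54.1% and 5.66. Bmp4 read 10.97, and Bmp2, Bmp6 and Gdf5 read 2.13, 2.62 and 3.14. The receptors Bmpr2, Bmpr1a and Acvr1 read 10.37, 9.94 and 9.35, and Bmpr1b, a receptor of forming cartilage, 2.58. Smad1 and Smad5, which carry the signal, read 9.19 and 9.01, and their relative Smad9 3.56.

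Known targets of BMP signalling were clearly above background. The Id genes, repressors that BMP induces, read 11.22 for Id3, 10.67 for Id1, 9.70 for Id2 and 6.36 for Id4. The inhibitory Smad6 read 9.61 and the pseudoreceptor Bambi 8.13. Of the secreted antagonists, follistatin, Fst, read 9.50 and Grem1 7.62, while chordin, Chrd, read 4.97 and noggin, Nog, 2.18.

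**Figure D4:**
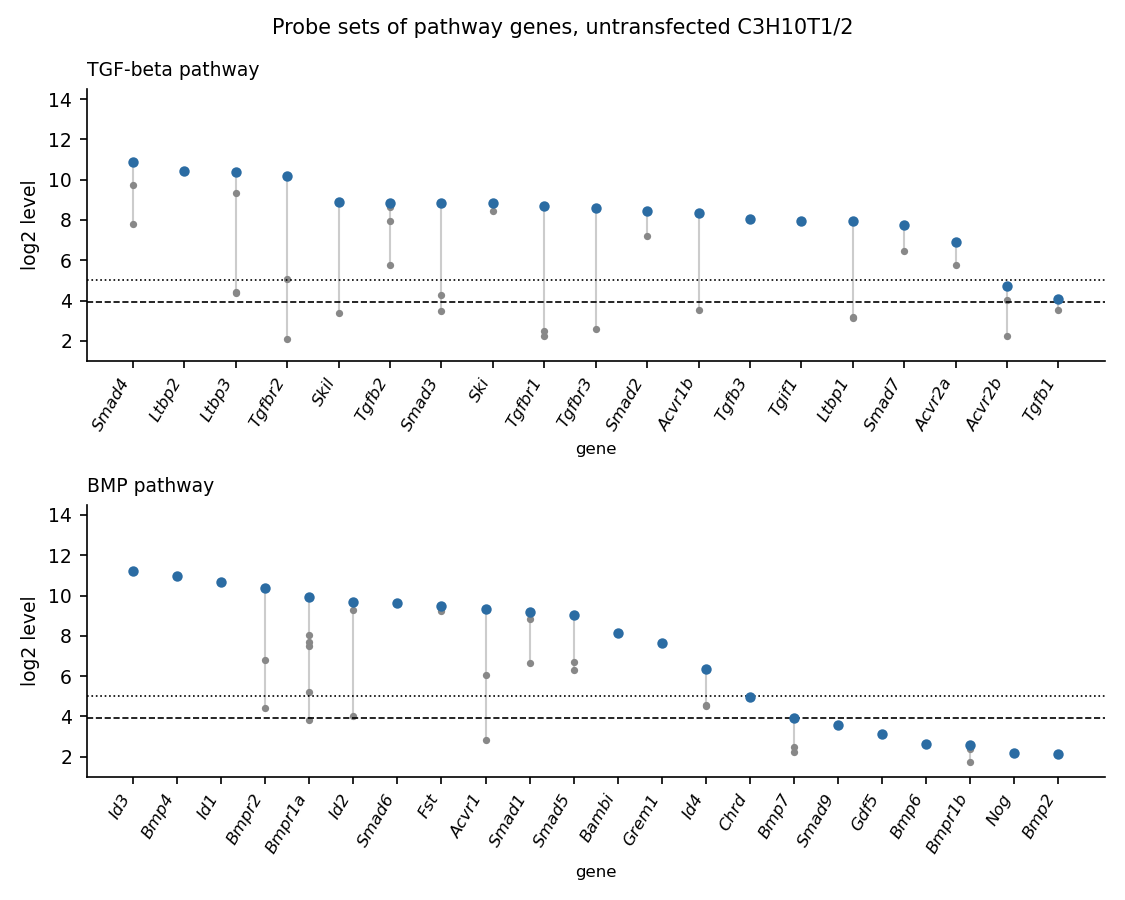
Log2 level of every probe set of TGFβ (top) and BMP (bottom) pathway genes on the untransfected array, with the highest probe set of each gene in blue, lower ones in grey, and background lines at 3.92 (dashed) and 5.01 (dotted). Of the TGFβ genes, 17 of 19 lie above the dotted line, while the BMP ligands run from Bmp4 at 10.97 to Bmp2 at 2.13.

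Receptors for other growth factors were widely present. Of 20 measured, 19 were above background and 16 clearly so, against 62.9% and 54.1% of all genes. The number of probe sets bears on this share, since 85.8% of genes with 3 or more were above background. Ntrk2 passed the line with 1 of 8 probe sets and Fgfr1 with 3 of 3. The collagen receptor Ddr1 read 10.41 with a probe set that may cross-match, though its 8 probe sets reached down to 2.77. The cytokine receptors Il6st and Osmr read 10.24 and 9.53. Fgfr1, Fgfr2 and Fgfr3 read 9.10, 8.60 and 8.55, with Fgfr4 at 3.94. Met, the receptor of Hgf, read 7.52 and Egfr 7.01, and Kit, the receptor of Kitl, was at background with 2.49 while Kitl itself read 9.96.

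Many secreted factors were readable. Of 26 measured, 21 (80.8%) were above background and 19 (73.1%) clearly so, against 62.9% and 54.1% of all genes. The matricellular Ccn2 and Ccn1 read 12.44 and 11.41. Fgf7, a stromal factor for epithelium, read 10.73 and 9.75 with its probe sets and was the only Fgf gene of 22 clearly above background; Fgf2 read 2.26. Csf1, which feeds macrophages, read 10.49, Igf1 8.95, Bdnf 8.92 and Vegfa 7.47. The inflammatory cytokine Il6 read 4.73, between the lines.

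Targets of agents used in differentiation media were read in the starting cells. Of 19 such genes, 16 (84.2%) were above background and 14 (73.7%) clearly so, against 62.9% and 54.1% of all genes. The dexamethasone receptor Nr3c1 was read at 9.38 by its highest probe set, the insulin pathway adaptor Irs1 at 12.18 and the insulin receptor Insr at 7.39. Igf1r read 9.26. The phosphate carriers Slc20a1 and Slc20a2 read 8.82 and 7.94. Of 10 cyclic nucleotide phosphodiesterases, the enzymes that IBMX blocks or their relatives, the highest reading was that of Pde5a at 8.81. Its probe set and that of Pde7a at 8.17 may cross-match, and Pde4d read 7.74. Pde1a and Pde4a lay between the lines with 4.02 and 4.55, and Pde3a and Pde1c at background with 3.46 and 3.14. Of the vitamin C transporters, Slc23a2 read 7.48 and Slc23a1 2.70, the latter at background.

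The interferon list included the route by which an ecotropic retrovirus enters mouse cells. Slc7a1, the amino acid carrier that serves as its receptor, was read by 3 probe sets at 10.20, 8.97 and 2.77. The interferon receptor chains Ifnar2 and Ifnar1 read 9.14 and 8.14. Over the whole list 17 of 21 genes (81.0%) were above background but 10 (47.6%) clearly so, against 62.9% and 54.1% of all genes. Its effectors ran from bright to background, with Ifit2 at 7.98, Bst2 at 6.44, Oas2 at 5.01, Mx1 at 3.72 and Ifit1 at 2.90. Irf3, which starts the response, read 7.98 and Irf7, which amplifies it, 4.13. The sensing side was thus readable while several induced effectors were at background in cells without a vector.

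Genes of the sex chromosomes were read as a check on the line. Xist, the RNA that coats the inactive X, was read by 3 probe sets at 12.06, 10.77 and 9.34. The X-linked Ddx3x, Eif2s3x, Kdm5c and Kdm6a read 11.93, 11.65, 8.90 and 8.37. Their Y relatives Eif2s3y, Kdm5d and Uty were at background with 2.19, 2.44 and 2.08. Of 9 measured Y genes, Sry at 5.01, with a probe set that may cross-match, and Zfy2 at 4.81 were above background and none was clearly so. The array thus read Xist with no clear signal from the Y chromosome.

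Housekeeping genes and array controls were read as a check on the RNA. All 13 measured housekeeping genes were clearly above background, from Tbp at 7.44 to Actb at 13.68. The control probe sets at the opposite ends of the β-actin transcript read 13.74 (3′) and 13.28 (5′), and those of Gapdh 12.26 and 12.28. The ends differed more for pyruvate carboxylase, at 7.89 (3′) and 4.31 (5′), and for the transferrin receptor, at 3.36 and 2.12, with both ends at background, while those of 18S ribosomal RNA read 10.35 and 12.74. The part of RNA quality in the levels was not tested. The added hybridization controls bioB, bioC, bioD and cre, spiked in rising amounts, read 9.11, 10.3, 12.2 and 13.6 in that order.

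Promoter composition differed across the range of levels. Many mouse genes, above all those used by every cell, start in stretches rich in CG pairs, while some tissue genes start at a TATA box. RefSeq promoters of the build GRCm38.p6 were matched by symbol for 11791 genes with a single entry, and the CG pairs in the 250 bases before the start site were counted. The median was 5 pairs in the 4407 genes at or below background, 9 in the 981 genes between the lines, 16 in genes from 5.01 to 8, 18 from 8 to 11 and 18 in the 426 genes above 11. Spearman's rho between CG pairs and level was 0.50 across genes, which are not independent of each other.

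The letters TATAAA were searched on the strand of the gene, beginning 20 to 40 bases before the start. They were present in 5.13% of genes at or below background, 4.28% between the lines and 0.942% from 5.01 to 8. From 8 to 11 the share was 0.899%, and above 11 it was 2.58% (11 of 426 genes). Over all 11791 matched genes it was 2.83%, and over all 22862 single promoters in the reference 2.42%. The share was thus higher at both ends of the range than in its middle, though above 11 it was below that of all matched genes. Matrix genes had a median of 7 CG pairs over 9 genes and tendon genes of 2 over 7, although their levels were high or mixed, while the 22 matched cell division genes had a median of 18.5.

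The promoters of 3 genes show the kinds of sequence found in bright genes, each on the plus strand, 5′ to 3′, ending at the base before the start site. CG pairs and TATAAA are in capitals. That of Tpt1 (chr14:75845006-75845255), with 33 CG pairs, is of the CG-rich kind; that of Vim (chr2:13574061-13574310) has 8 and TATAAA beginning 32 bases before the start; that of Tnmd (chrX:133850758-133851007) has 2 CG pairs and no TATAAA in the window.
Tpt1: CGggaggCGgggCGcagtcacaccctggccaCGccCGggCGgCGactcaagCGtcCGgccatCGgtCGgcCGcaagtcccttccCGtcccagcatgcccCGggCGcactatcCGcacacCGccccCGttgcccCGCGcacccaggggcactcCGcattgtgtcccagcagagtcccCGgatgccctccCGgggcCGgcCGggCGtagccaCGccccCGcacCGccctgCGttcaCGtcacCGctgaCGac
Vim: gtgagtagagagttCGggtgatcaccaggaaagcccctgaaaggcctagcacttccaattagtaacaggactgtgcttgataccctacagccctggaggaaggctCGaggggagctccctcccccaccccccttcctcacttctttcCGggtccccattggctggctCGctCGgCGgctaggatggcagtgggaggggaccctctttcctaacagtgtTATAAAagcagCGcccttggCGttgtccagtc
Tnmd: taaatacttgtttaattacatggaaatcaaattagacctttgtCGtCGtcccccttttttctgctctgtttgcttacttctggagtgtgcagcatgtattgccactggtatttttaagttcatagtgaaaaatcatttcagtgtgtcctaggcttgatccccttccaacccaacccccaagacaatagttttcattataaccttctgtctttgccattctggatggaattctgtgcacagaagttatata
These genes read 13.79, 13.45 and 10.74, so bright readings were found with each of these compositions. A match of letters is a description and not a bound site.

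**Figure D5:**
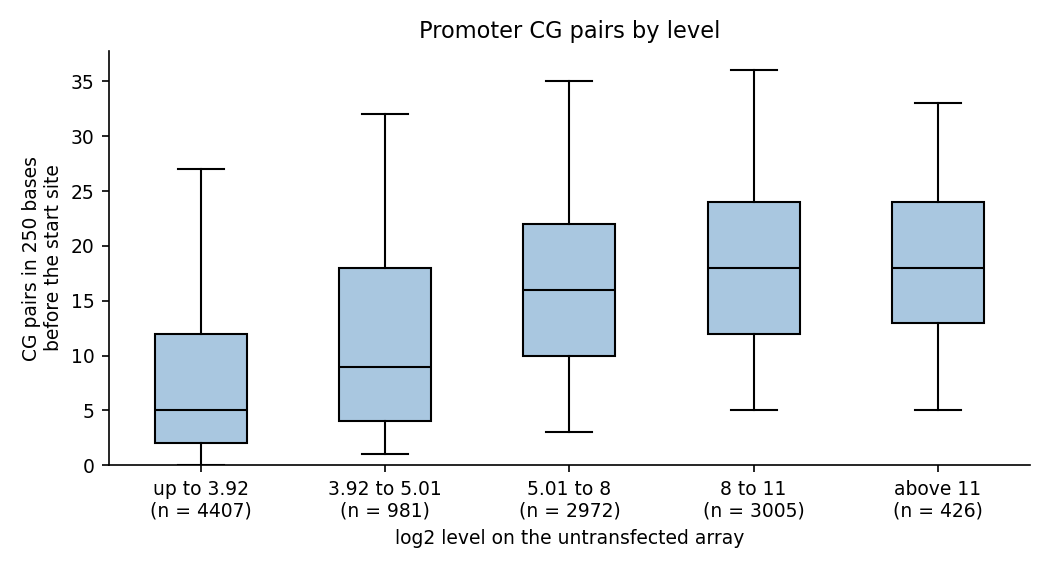
CG pairs in the 250 bases before the start site for genes grouped by log2 level on the untransfected array; boxes span the quartiles around the median line and whiskers the 5th to 95th percentiles. The median rises from 5 pairs at or below 3.92 to 18 above 8.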

How the data were processed

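Total RNA of untransfected C3H10T1/2 cells was read on 1 Affymetrix mouse genome array. Per the labels, ISOGEN was used for extraction and a GeneChip 3′ IVT Express kit for labelling. The study's methods name MAS 5.0 for summarization, while the submitters' processing notes name RMA, with no version. The authors deposited log2 values, normalized over 3 arrays together, and these were used unchanged. Which summary made them is not settled. They ran from 1.51 to 13.95 on this array.

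Of 45101 probe sets, 64 controls were left out, 932 carried several symbols and 9160 none in GEO's platform annotation. Gene IDs matched a RefSeq table for 99.4% of single-symbol probe sets, and no symbol changed. A gene's level was its highest probe set. Background was the 95th percentile of 86 sensory receptor probe sets, because no detection calls were used and a median of all probe sets is passed by a fixed share of them. Genes named are the highest 25, members of the marker, pathway and family lists, and probe sets of those genes. The members and lists were chosen with earlier results of these data known. No test was made, since 1 array has no replicate, and this number limits the precision. Other thresholds, other ways to combine probe sets and the omission of probe sets marked _x_at, _s_at and _a_at were tried. Scripts ran in Python 3.11.15 with pandas 2.3.3 and NumPy 2.4.6, rank correlation used SciPy 1.17.1, and figures were drawn by matplotlib 3.10.9.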

Additional observations from a re-analysis of the deposited data

Results flagged for a closer look

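Probe sets outside the gene levels also carried signal. Of 9160 probe sets with no symbol in the name table, 3119 (34.1%) were above background, 1877 of them above 5.01, and the brightest read 13.85. Of 932 probe sets with several symbols, 571 (61.3%) were above background, and the highest read 13.79. They are singled out because no level above uses them.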

How the results depend on the processing

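The number of genes above background lay between 9652 and 11598 under every alternative but one, including 9962 of 16591 genes without marked probe sets. With the 75th percentile of all probe sets (7.14) as threshold it was 6928. Mesenchymal stromal markers stayed between 17 and 21. Markers of other cell types, 57 of 149 with smooth muscle included, depended on the threshold: 26 passed the 99th percentile, 24 the highest value held by at least 100 probe sets (5.16, chosen after seeing the data) and 9 the 75th percentile. Of 29 lists, 19 changed their count over 1.5 times at the 75th percentile, 12 at the 99th percentile, 12 at the highest shared value, 6 with the mean of all probe sets and 3 each at the median of all probe sets and without marked ones. The SD between probe sets was 2.20 over genes above background only. With the mean of all probe sets, 85 of 497 gene levels moved by over 2.01 log2 units. Low levels, where many probe sets share a value, limit what can be ordered. The cause of these changes was not tested. No paired analysis was possible because the array has no replicate and no test was made.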

Other observations

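Gene families taken by symbol gave further readings, to be set beside the 62.9% of all genes above background. All 17 ATP synthase genes, 43 of 44 genes of complex I and 37 of 39 proteasome genes were above background, with medians of 11.8, 10.8 and 10.8. All 10 frizzled receptors of Wnt signalling were above background, led by Fzd1 at 10.14 and Fzd2 at 9.72, and so were 10 of 19 Wnt ligands (52.6%), of which 4 were clearly above it. Keratins were above background in 13 of 44 genes (29.5%) and interleukins in 4 of 27 (14.8%).

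Hox genes, which record position along the body, were above background in 11 of 33 genes (33.3%), against 62.9% of all genes. Of these 7 were among the 9 measured genes of the Hoxa cluster, with Hoxa5 at 7.74, Hoxa7 at 7.39, Hoxa3 at 6.79, Hoxa2 at 6.10 and Hoxa10 at 5.69. Hoxa11 and Hoxa13, at the far end of the cluster, read 2.40 and 2.66. The Hoxb and Hoxc clusters had 2 each, at 5.19 or below, and none of 8 Hoxd genes was above background. Of other developmental factors, Sox4 read 10.87, Foxd1 9.28, Foxc1 8.99 and Tbx18 8.19.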
